A study of Mus musculus with 4 samples.

Results

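The genes described are those of nestin and 9 further components of the intermediate filament system: Nes, Vim, Des, Synm, Krt8, Krt18, Krt19, Krt7, Lmna and Plec. They were chosen by name, as the entries of the deposited count table whose gene name matched, and all 10 were found among the 54532 genes of the table. RNA-sequencing was performed on MPC5, a conditionally immortalized mouse podocyte cell line, so every library came from a single line and no animal was sampled. The control group held 2 libraries of saline-treated cells, and the IL-12 group held 2 libraries of cells incubated with 400 ng/ml of the cytokine interleukin-12 for 6 h. The 4 libraries held between 18355379 and 20098012 counts. The comparison asked which transcripts differ in podocytes after exposure to IL-12.

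Intermediate filaments are the rope-like polymers of the cytoskeleton, and podocytes carry a vimentin and nestin network through their cell body and major processes. Vimentin and desmin are type III proteins that build filaments on their own, whereas nestin and synemin are large type IV proteins that enter filaments only with such a partner. Keratins polymerize as pairs of a type I chain (Krt18, Krt19) and a type II chain (Krt7, Krt8) and are typical of other epithelia, lamins form the meshwork under the nuclear membrane, and plectin ties filaments to one another, to actin and to anchoring junctions.

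Among the genes that could be tested Nes had the largest difference, and the DNA in front of it is shown for that reason. In GRCm38 coordinates, used throughout, the gene (ENSMUSG00000004891) lies at chr3:87971078-87980451 on the plus strand, has 4 exons and 6416 exonic bases, and overlaps no other annotated gene. The 235 bases before its first annotated exon (chr3:87970843-87971077, plus strand, RefSeq promoter table of GRCm38.p6) were 58.7% G or C. Capitals mark GC boxes, searched as GGGCGG on both strands and seen here on the minus strand.
Nes: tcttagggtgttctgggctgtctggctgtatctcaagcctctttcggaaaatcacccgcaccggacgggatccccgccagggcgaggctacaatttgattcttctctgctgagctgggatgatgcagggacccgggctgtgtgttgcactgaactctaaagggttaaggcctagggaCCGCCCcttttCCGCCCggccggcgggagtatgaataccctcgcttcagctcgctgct
Both GC boxes lie close together near the exon end of the window, and 32.7% of the 32851 promoter windows of 250 bases in the table held a GC box. Neither a TATA box (TATAAA), held by 12.4% of all windows, nor a CCAAT box, held by 33.8%, was present on either strand. The letters of the AP-1 site (TGANTCA), which 6.75% of all windows held, and of the TEAD site (GGAATG), which 12.6% held, were not found. The palindromic SMAD site (GTCTAGAC), which occurred in 0.167% of all windows, was absent too. The same table had windows for 8 of the 10 genes. The Vim window held 1 TATA box and 2 CCAAT boxes, the Des window 2 GC boxes and the Krt7 window 4 GC boxes. The Synm window held 1 CCAAT box. Lmna had a window with 1 GC box (start site chr3:88503352) and another with 1 CCAAT box (start site chr3:88493312). Those of Krt8 and Krt18 held none of these motifs on either strand. The windows of Vim, Krt7 and Lmna lie inside the annotated genes, and those of Krt8 and Krt18 reach into them. A match of letters is a description and not a measured binding site.

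Nes, Vim, Lmna and Plec were higher in the IL-12 group, Synm was lower, and Des and Krt7 were not called. Of the 10 genes, 4 were higher and 1 was lower at an adjusted p below 0.05. The test was edgeR's quasi-likelihood test, with adjustment after Benjamini-Hochberg over the 14095 genes that passed edgeR's filter on low counts (a minimum of 10 counts). For the background, 16.1% of all genes tested were higher and 14.4% were lower at that threshold. Only Nes of the 10 was also over 2-fold higher, as were 0.858% of all genes tested. Krt8, Krt18 and Krt19 had too few counts to enter the test. Nothing in the labels says that the libraries came from separate cultures, so these p-values measure the spread between the libraries, which may be technical. An exact permutation test of 2 against 2 libraries cannot go below 0.333.

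**Figure D1:**
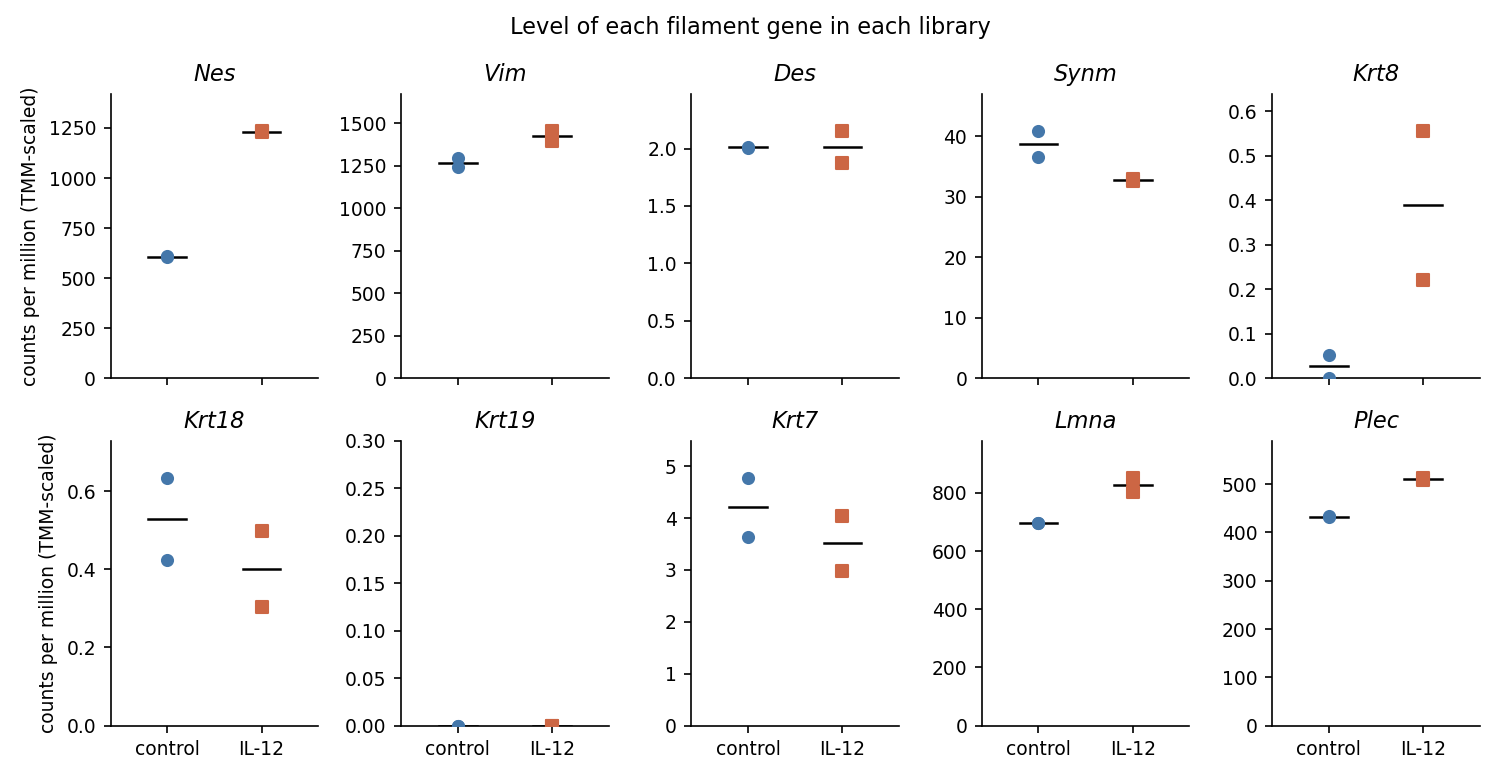
Level of each of the 10 genes in each library, as CPM (counts per 1000000, scaled by TMM, edgeR's correction for library composition), with control libraries as circles, IL-12 libraries as squares and the group mean as a bar; each panel has its own axis from 0. The IL-12 libraries lie above the control libraries for Nes, Vim, Lmna, Plec and Krt8 and below them for Synm.

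Nes encodes nestin, which binds vimentin and is used as a marker of progenitor cells and of podocytes. The gene had 11534 and 11388 counts under saline, and 24289 and 22373 under IL-12. Scaled to 1000000 counts per library (CPM), these were 609 and 603 against 1228 and 1237. The libraries of each group sat close together, and the groups were far apart. The mean level rose from 606 ± 3.85 CPM to 1232 ± 6.28 CPM (SD, n = 2 libraries per group), a 2.03-fold level and a log2 difference of 1.02 (SE 0.03, 95% interval 0.97 to 1.08, adjusted p = 1.82e-15 by edgeR's quasi-likelihood test). That interval includes a 2-fold change. Nes had the 5th smallest p-value of the 14095 genes tested. In counts per kilobase of gene length it ranked 419 and 440 among all 54532 genes under saline, and 177 and 167 under IL-12. With libraries scaled by total counts alone the log2 difference was 0.98, under 2-fold.

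Vim encodes vimentin, the type III filament protein of mesenchymal cells and of podocytes. It lies at chr2:13573927-13582826 on the plus strand. Its level was 1241 and 1295 CPM under saline and 1456 and 1396 CPM under IL-12. The IL-12 libraries were both the higher ones, with a gap wider than the spread inside either group. The mean rose from 1268 ± 38.4 to 1426 ± 42.7 CPM, a 1.12-fold level and a log2 difference of 0.17 (SE 0.03, 95% interval 0.11 to 0.23, adjusted p = 0.000122 by edgeR). Per kilobase Vim was the most abundant of the 10 genes in all 4 libraries and ranked between 79 and 93 among all genes.

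Synm and Des, the other cytoplasmic partners, were far less abundant. Synm encodes synemin, which links vimentin and desmin filaments to the dystrophin complex and to adhesion sites, and lies at chr7:67730160-67759742 on the minus strand. It had 694 and 773 counts under saline but 646 and 595 under IL-12, or 36.6 and 41.0 against 32.7 and 32.9 CPM. Both IL-12 libraries were below both controls. The mean fell from 38.8 ± 3.06 to 32.8 ± 0.165 CPM, a log2 difference of -0.24 (SE 0.07, 95% interval -0.40 to -0.09, adjusted p = 0.015 by edgeR). This call was lost without control replicate 2 (log2 difference -0.16, adjusted p = 0.201), without IL-12 replicate 1 (adjusted p = 0.138), without IL-12 replicate 2 (adjusted p = 0.0953), with no filter on low counts (adjusted p = 0.0662) and by DESeq2 (adjusted p = 0.096). Synm overlaps Ttc23 on the opposite strand, which had 1691 counts over the 4 libraries, and whether strand was used in counting is not given in the sources used here.

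Des encodes desmin, the muscle-type filament protein whose staining is a common marker of podocyte injury, and lies at chr1:75360329-75368579 on the plus strand. Its counts were 38, 38, 37 and 39 in control libraries 1 and 2 and IL-12 libraries 1 and 2, or 2.01, 2.01, 1.87 and 2.16 CPM. The groups overlapped and the log2 difference was 0.00, with a 95% interval from -0.57 to 0.57 (adjusted p = 0.999 by edgeR). At this depth a difference smaller than that interval was not detectable.

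**Figure D2:**
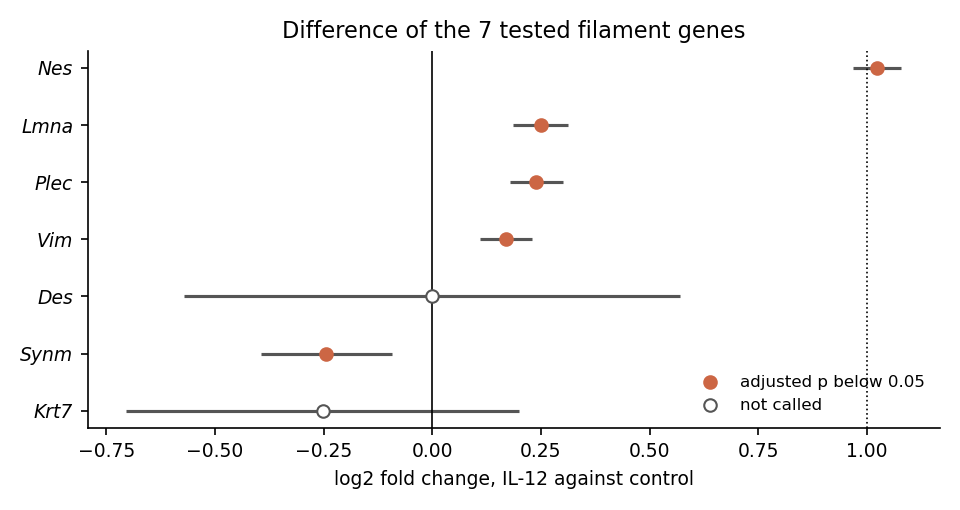
Log2 fold change of IL-12 against control for the 7 tested genes, with 95% intervals from edgeR; filled points were called at an adjusted p below 0.05 and the dotted line marks 2-fold. Nes stands alone near 1.02, Lmna, Plec and Vim lie between 0.17 and 0.25, and the intervals of Des and Krt7 are wide.

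The simple-epithelial keratins were scarce. Krt7, a type II keratin of ductal and glandular epithelia at chr15:101411043-101430313 on the plus strand, had 69 and 90 counts in the controls, and 80 and 54 in the IL-12 group (log2 difference -0.25, 95% interval -0.70 to 0.20, adjusted p = 0.423 by edgeR). The groups overlapped, and the log2 difference was -0.43 without control replicate 1, -0.04 without control replicate 2, -0.49 without IL-12 replicate 1 and -0.06 without IL-12 replicate 2, never called. A stretch of its last exon is at least 90% identical, over 150 bases or more, to transcripts of 80 other genes, so these counts are uncertain.

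Krt8 and Krt18 encode the obligate keratin pair of simple epithelia and lie next to each other at chr15:101996698-102004482 on the minus strand and chr15:102028180-102032027 on the plus strand. Krt8 had 0 and 1 counts in the control libraries against 11 and 4 in the IL-12 libraries. Its groups did not overlap, but 1 control count against 15 IL-12 counts gave a depth-adjusted ratio of 14.6 with an exact 95% interval from 2.24 to 613, which covers counting error only. When no filter on low counts was applied, its adjusted p by edgeR was 0.101. It was called only without control replicate 2, where the remaining control library held 0 counts. Krt18 had 12 and 8 counts under saline and 6 and 9 under IL-12, and its groups overlapped (ratio 0.728, exact 95% interval 0.347 to 1.496). Per kilobase, the ratio of Krt8 to Krt18 was 0 and 0.0917 in the controls, and 1.35 and 0.326 in the IL-12 group. Processed pseudogenes of both exist, Krt8-ps at 98.6% identity over 941 bases and Gm5200 at 90.4% over 1267 bases of Krt18, and both had 0 counts in all 4 libraries. Krt19, the type I keratin of ducts and of the parietal epithelium (chr11:100140810-100148665, minus strand), had 0 counts in all 4 libraries, which allows a level of up to 0.149 to 0.163 CPM per library.

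Lmna encodes lamins A and C, the A-type lamins, which the gene-level counts do not separate. It lies at chr3:88480147-88509956 on the minus strand, on the same chromosome as Nes. Its level was 695 and 695 CPM in the control libraries against 851 and 802 CPM in the IL-12 libraries. Both IL-12 libraries were higher, and they differed from each other more than the control libraries did. The mean rose from 695 ± 0.167 to 826 ± 34.4 CPM, a 1.19-fold level and a log2 difference of 0.25 (SE 0.03, 95% interval 0.19 to 0.31, adjusted p = 3.63e-06 by edgeR). Its ratio per kilobase to Lmnb1, the gene of lamin B1, was 2.67 and 2.63 under saline and 2.90 and 2.69 under IL-12.

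Plec encodes plectin, the cross-linker that joins intermediate filaments to actin, the nuclear envelope and hemidesmosomes. It lies at chr15:76170974-76232574 on the minus strand, has 21 annotated coding transcripts and was counted over 18113 exonic bases. Its level was 433 and 432 CPM in the controls, and 512 and 508 CPM in the IL-12 group. Within each group the libraries nearly coincided. The mean rose from 432 ± 1.17 to 510 ± 2.72 CPM, with a log2 difference of 0.24 (SE 0.03, 95% interval 0.18 to 0.30, adjusted p = 4.01e-06 by edgeR). Parp10 overlaps Plec on the same strand and had 1245 and 1186 counts in the control libraries against 1234 and 1037 in the IL-12 libraries.

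Nes, Vim, Lmna and Plec are 4 tested genes in which both IL-12 libraries lay above both control libraries, as did 31.7% of all genes tested. Synm had both IL-12 libraries below both control libraries, as did 31.2% of all genes tested. Differences of the kind seen in Vim, Lmna and Plec were thus frequent among all genes, whereas a call over 2-fold, as in Nes, was rare. The log2 differences of Nes, Vim, Lmna and Plec ranged over the leave-one-out fits from 1.02 to 1.03, 0.14 to 0.20, 0.21 to 0.29 and 0.24 to 0.25, with all 4 still called.

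The make-up of the filament transcript pool shifted towards Nes. Counts per kilobase of each gene were taken as a share of the sum over the 10 genes, a description with no test. The length used joins all annotated exons, 6416 bases for Nes, 4743 for Vim and 5838 for Lmna. Their longest coding transcripts have 6126, 2193 and 3156 bases, so this length lowers Vim and Lmna relative to Nes. The size of the shares and of the ratio of Nes to Vim depends on the length chosen, which is the same in all 4 libraries. Nes made up 18.8% and 18.2% of the pool under saline, and 28.2% and 29.3% under IL-12. Vim made up 51.7% and 52.8% under saline and 45.3% and 44.7% under IL-12, so its share was lower although its level was higher. Lmna went from 23.6% and 23.1% to 21.5% and 20.9%. The ratio of Nes to Vim per kilobase was 0.363 and 0.344 in the controls, and 0.623 and 0.655 in the IL-12 group, with no overlap. Plec made up 4.73% and 4.61% under saline and 4.17% and 4.27% under IL-12. The shares of Lmna and Plec, like that of Vim, were thus lower although their levels were higher. Each of the remaining 6 genes was under 1%.

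**Figure D3:**
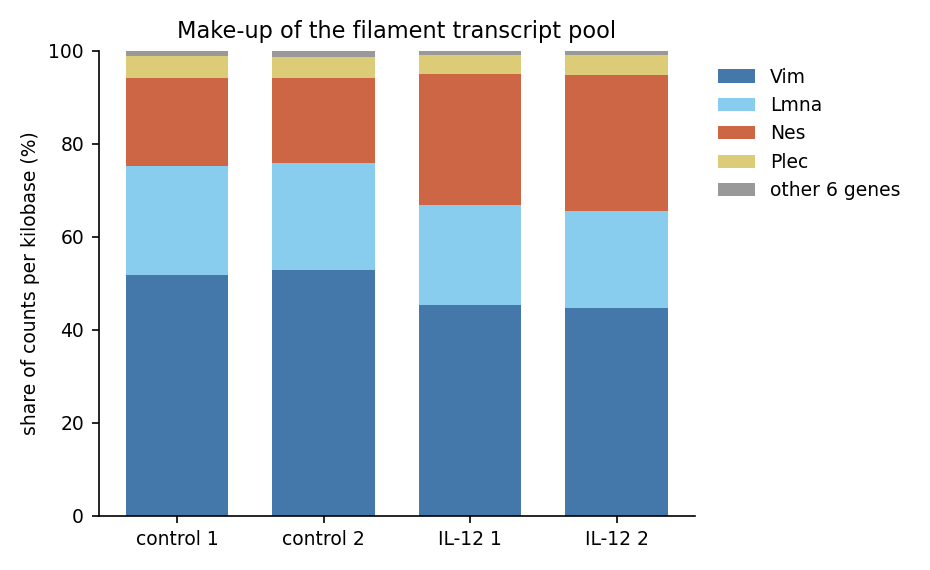
Share of each gene in the summed counts per kilobase of the 10 filament genes, in percent, for each of the 4 libraries. The Nes segment is 18.2% to 18.8% in the control libraries against 28.2% to 29.3% in the IL-12 libraries. The Vim, Lmna and Plec segments are smaller in the IL-12 libraries.

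The rest of the filament system was read from 9 further lists of 117 genes, of which 60 were tested, 11 were higher, 13 were lower and 36 were not called. With a list of 6 proliferation genes the 10 lists held 123 genes, of which 66 were tested, 13 were higher and 14 were lower. These counts stand beside the shares of 16.1% higher and 14.4% lower among all genes tested. All adjusted p-values here are from edgeR's quasi-likelihood test, adjusted after Benjamini-Hochberg over all genes tested. The median log2 difference of all genes tested was 0.00.

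Among the other type I keratins, 2 of 25 genes were tested and 1 was higher. That gene was Krt20, a keratin of intestinal and urothelial surfaces, with 235 and 271 counts under saline and 413 and 376 under IL-12 (log2 difference 0.64, SE 0.10, adjusted p = 8.74e-05). Only 1 of 21 other type II keratins was tested, and it was not called. Krt79, named after its values were seen, had 2 and 3 counts in the controls, and 14 and 7 in the IL-12 group, and was too low for the test. Of the 10 other type III, type IV and lens filament genes, 2 were tested and Iffo2, an intermediate filament family orphan, was higher at 84.7 ± 4.86 against 128 ± 5.66 CPM (log2 difference 0.60, adjusted p = 4.93e-08).

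All 16 lamin partners and nuclear envelope genes were tested, with 2 higher, 4 lower and a median log2 difference of -0.02. Lmnb1, a B-type lamin, and Banf1, a DNA-binding partner of LEM-domain proteins, were higher by 0.18 and 0.21 on the log2 scale (adjusted p = 0.00276 and 0.00203). Syne2, the giant nesprin that couples the nucleus to actin, fell from 4779 and 4431 counts to 2896 and 2910 (log2 difference -0.67, SE 0.05, adjusted p = 3.27e-09). Its inner-membrane binding partner Sun2 (-0.18, adjusted p = 0.000772) and the lamin-binding Tmpo (-0.10, adjusted p = 0.0214) were also lower. The 5 lamin processing enzymes had 1 call, the farnesyltransferase subunit Fntb (0.27, adjusted p = 0.0352). It was lost under 6 of 11 alternatives, among them without IL-12 replicate 1 (0.16, adjusted p = 0.345).

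Of 6 other plakins 4 were tested, all with log2 differences below 0, unlike Plec. By edgeR 2 of them were lower, and the median was -0.26. Those 2 were the cytoskeletal cross-linkers Dst (-0.21, adjusted p = 0.000636) and Macf1 (-0.13, adjusted p = 0.00837). The 2 not called had only 31 to 95 counts in a library and lay furthest below 0, at -0.31 and -0.35. Without IL-12 replicate 1, Dst was at -0.12 (adjusted p = 0.0275) and Macf1 at -0.06 and no longer called (adjusted p = 0.194), and DESeq2 did not call Dst (adjusted p = 0.0974). Desmoplakin (Dsp), named after its values were seen, which anchors keratins at desmosomes, had 0 and 1 counts in the control libraries against 2 and 4 in the IL-12 libraries.

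Of 12 desmosome and hemidesmosome anchors, 9 were tested, with 4 higher, 1 lower and a median of 0.11. Pkp1, a desmosomal plaque protein, rose from 21 and 16 counts to 91 and 79 (log2 difference 2.19, SE 0.27, adjusted p = 3.86e-06), although its level was only 4.48 ± 0.165 CPM in the IL-12 group. Itga6, a laminin-binding integrin chain found in hemidesmosomes, rose from 162 ± 0.0942 to 221 ± 5.26 CPM (0.45, adjusted p = 4.14e-08). Some other genes of the list, named after their values were seen, were scarce or absent. Itgb4 had 10 to 15 counts in a library and was not called (adjusted p = 0.637). Col17a1 had 1 or 2 counts, and Dsg2 and Dsc2 had 0 counts in all 4 libraries. The plaque proteins Pkp2 (0.19, adjusted p = 0.0106) and Jup (0.11, adjusted p = 0.0234) were slightly higher and the desmosomal membrane protein Perp was slightly lower (-0.11, adjusted p = 0.0206).

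Of the 5 genes of the dystrophin complex, the membrane assembly that synemin binds, 1 was higher and 2 were lower, with a median of -0.17. Dag1, which encodes dystroglycan, the laminin receptor on the podocyte surface, fell from 22973 and 22250 counts to 16164 and 15049 (log2 difference -0.54, SE 0.03, adjusted p = 3.24e-11). The dystrophin homologue Utrn was lower (-0.25, adjusted p = 1.41e-05) and the dystrobrevin Dtnb was higher (0.29, adjusted p = 0.000157).

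Of 17 filament kinases, chaperones and turnover genes, 16 were tested, with 1 higher, 4 lower and a median of -0.01. Cryab, the small heat shock protein that binds desmin and vimentin, fell from 9465 and 9328 counts to 7418 and 6719 (log2 difference -0.41, SE 0.03, adjusted p = 5.15e-09). Rock2, a kinase that phosphorylates vimentin, was higher (0.21, adjusted p = 0.000317). Tchp, a keratin-binding protein (-0.27, adjusted p = 0.00374), and the nestin kinase Cdk5 (-0.19, adjusted p = 0.0174) were lower.

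**Figure D4:**
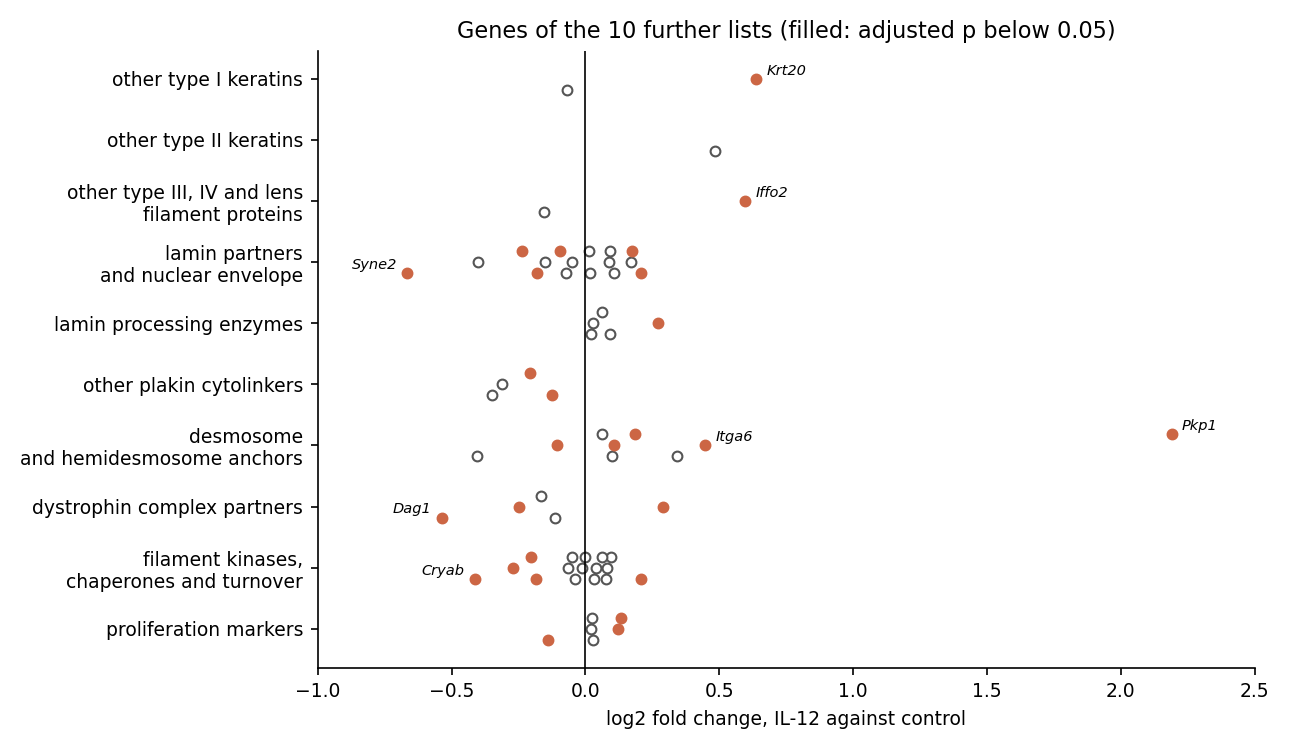
Log2 fold change of IL-12 against control for the 66 tested genes of the 10 further lists, 1 line per list; filled points were called at an adjusted p below 0.05 by edgeR, and vertical offsets within a line only separate points. Most points lie between -0.5 and 0.5, and Pkp1 is far to the right at 2.19.

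With 1 library left out, 7 to 12 of the list genes were higher and 7 to 13 were lower; the fewest came without IL-12 replicate 1. The calls on Krt20, Iffo2, Lmnb1, Sun2, Syne2, Pkp1, Itga6, Utrn, Dtnb, Dag1, Rock2 and Cryab, 12 of the 27, were made under all 11 alternatives run, and the other 15 were lost under at least 1. Jup and Perp were lost whichever of the 4 libraries was left out (adjusted p from 0.0631 to 0.124 and from 0.0775 to 0.137). Without IL-12 replicate 1 the adjusted p was 0.0661 for Banf1, 0.162 for Pkp2, 0.185 for Cdk5, 0.0527 for Tchp, 0.142 for Mcm2, 0.0726 for Pcna and 0.109 for Mki67. Without control replicate 1 it was 0.0501 for Banf1, 0.208 for Tmpo, 0.0738 for Tchp, 0.0906 for Mcm2 and 0.104 for Pcna. Cdk5 was also lost without control replicate 2 (0.117), and Tmpo and Tchp without IL-12 replicate 2 (0.152 and 0.0704).

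Nestin is also a marker of dividing progenitors, and 6 proliferation genes were read as well. Mcm2 (0.13, adjusted p = 0.00932) and Pcna (0.12, adjusted p = 0.013), both of DNA replication, were higher and Mki67 was lower (-0.14, adjusted p = 0.00603), while 3 were not called, by edgeR. Without control replicate 1 the call on Mki67 was lost (-0.09, adjusted p = 0.168). The summed level of the 6 genes was 1460 and 1436 CPM under saline and 1479 and 1472 CPM under IL-12. The part of proliferation in the level of Nes was not tested.

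Of 12 podocyte markers 6 were tested, and their summed level was 2852 and 2843 CPM in the controls, and 2818 and 2799 CPM in the IL-12 group. The defining slit diaphragm gene Nphs1 (nephrin) was nearly absent, with 0, 1, 0 and 0 counts. Synpo, the actin-associated synaptopodin, fell from 480 ± 13.7 to 304 ± 3.79 CPM (log2 difference -0.66, adjusted p = 3.00e-11 by edgeR). Single markers are named here for their defining role, whether called or not. Genes that mark other kidney cells were expressed, with summed levels of 382 to 387 CPM in the control libraries against 282 to 283 CPM in the IL-12 libraries for 3 parietal markers, 832 to 868 against 641 to 679 CPM for 7 tubular markers, and 208 against 223 to 231 CPM for 6 mesangial and smooth muscle markers. By edgeR 2 of the parietal, 2 of the tubular and 1 of the mesangial markers were lower, and 2 of the mesangial markers were higher. The 2 lower tubular markers, which held most of the tubular sum, were Lrp2 and Cdh16. Lrp2 fell from 646 ± 18.7 to 537 ± 28.7 CPM (log2 difference -0.27, adjusted p = 8.70e-06 by edgeR). Cdh16 fell from 202 ± 7.05 to 120 ± 1.73 CPM (-0.75, adjusted p = 1.43e-10 by edgeR). The proximal and distal tubule genes Slc34a1 and Umod and the leukocyte genes Cd3e and Adgre1 had 0 counts in all 4 libraries. The 6 endothelial markers summed to at most 10.7 CPM and the 5 leukocyte markers to at most 7.19 CPM in any library. Vimentin is made by mesangial and smooth muscle cells as well, and the part of these other marker genes in the filament gene results was not tested. Every library came from a single line, so these markers are not a count of other cell types. In bulk libraries fewer cells expressing a marker and less of its RNA per cell cannot be told apart.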

How the data were processed

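The members and lists were chosen with earlier results of these data known. The authors deposited a table of unnormalized whole-number counts for every gene, FPKM values, and other columns with gene coordinates and the gene length in bases. The deposited FPKM values equal the count per kilobase per 1000000 counts times a constant of 0.985 to 1.02 per library. They were used only for the transcript shares, which are the same from either by construction, so they are no separate check. The submitters' processing notes name HISAT2, StringTie and the build mm9, while 98.3% of the 54495 genes shared with GENCODE M21 have its GRCm38 coordinates, as do all 10 members, so coordinates are given as GRCm38. The counting settings are not given in the sources used here.

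The analysis used edgeR 4.0.16, DESeq2 1.42.0 and limma 3.58.1 under R 4.3.3. Genes passing filterByExpr (minimum count 10, minimum total 15), 14095 in all, were scaled by TMM (factors 1.015, 1.013, 0.985 and 0.987) and compared by edgeR's quasi-likelihood test, adjusted after Benjamini-Hochberg. A gene was called at an adjusted p below 0.05. The SE of a log2 fold change is that change over the root of F. The floor was 3 counts, and such floors and count intervals cover counting error only. The script was tested on simulated data with 200 genes changed by known folds. It recovered 190 to 195 of them at an adjusted p below 0.05 by edgeR, with 12 to 21 false calls. Named genes are the 10 members and, from every other list, those called, at most the 5 with the smallest p; exceptions are marked, and defining cell type markers are named whether called or not. Of the genes so chosen, some are not reported here. Krt85 was not analysed here. Each library was entered as 1 replicate. Within a group the libraries differed by more than counting noise (chi-square per degree of freedom 2.20 and 2.51), which does not show that they came from separate cultures.

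The groups share the replicate numbers 1 and 2, with no stated link between them. The deviations of same-numbered libraries from their group means correlated at -0.03, so the fit had no block and the block was an alternative. Look-alike transcripts were sought with BLAST 2.17.0 (at least 90% identity over 150 bases), and figures were drawn with Python 3.11.15 and matplotlib 3.10.9. Other alternatives were DESeq2 size factors, total counts only, no filter, at least 10 counts in every library, DESeq2, limma voom and leaving out each library. Serum, staining and qPCR measurements were not analysed here.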

Additional observations from a re-analysis of the deposited data

How the results depend on the processing

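The 4 members called higher stayed at 4 or more under all alternatives run. The single lower call, Synm, was lost with no filter (0 members lower by edgeR, adjusted p = 0.0662 for Synm) and by DESeq2 (0 lower), with 1 member lower at an unadjusted p below 0.05 in both, and ranged from 0 to 1 over leaving out 1 library. With total counts only, 0 members were over 2-fold higher, because Nes was at 0.98 on the log2 scale; leaving out 1 library gave 1 to 2, the second being Krt8 without control replicate 2, where it entered the test on counts of 0, 11 and 4. Of the further lists, 7 to 12 genes were higher and 7 to 13 lower with 1 library left out, against 13 and 14. The higher and lower counts of these lists were 9 and 9 by DESeq2, 10 and 10 with no filter, and 9 and 15 with total counts only. Des, never called, changed sign without control replicate 2 (0.0025) and without IL-12 replicate 1 (0.10), with a range of -0.10 to 0.10. From raw counts with no length the ratio of Nes to Vim was 0.478 in the control group and 0.865 in the IL-12 group. Over all genes, 2267 were higher and 2030 lower, against 1481 and 1204 by DESeq2 and 1404 and 1124 without IL-12 replicate 1. Scaling by total counts made 40.5% of called genes higher against 52.8%, with a shift of the median of -0.041. With replicate number added as a block, the fit gave the same counts, 4 members higher and 1 lower and 13 and 14 list genes, and changed no other call among them. With 2 libraries a group, depth limits Des and the keratins most. The causes of these changes were not tested.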

Other observations

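The genes around Nes were read after its values were seen. Within 250 kb on either side, 12 other genes were tested, of which 2 were higher and 3 were lower, beside 16.1% higher and 14.4% lower among all genes tested, by edgeR's quasi-likelihood test, adjusted after Benjamini-Hochberg. Gpatch4, which encodes a G-patch domain protein and lies 62.7 kb beyond Nes, rose from 20.2 ± 1.70 to 36.9 ± 2.97 CPM (log2 difference 0.87, SE 0.09, adjusted p = 2.65e-07). Isg20l2, which encodes an exonuclease of ribosome biogenesis and lies 30.4 kb before Nes, was at 78.6 ± 1.97 CPM in the control group and 93.6 ± 1.14 CPM in the IL-12 group (0.25, adjusted p = 0.000458). Hdgf, a growth factor gene 54.9 kb before Nes, was lower at -0.09 on the log2 scale (adjusted p = 0.0189). Naxe (-0.20, adjusted p = 0.00728) and Iqgap3 (-0.21, adjusted p = 0.000689), on the far side of Gpatch4, were lower as well. None of these 12 tested genes was over 2-fold higher by edgeR.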
